A study of Mus musculus with 15 samples.

Results

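The endocannabinoid system was measured through 5 genes, the receptors Cnr1 and Cnr2 and the enzymes Napepld, Faah and Mgll, on arrays of the mouse hippocampus after extinction of contextual fear. They were chosen by gene symbol, which named 8 probes on the array. Another 2 probes, listed on this array design under another name, were matched to Napepld through their transcript identifier in a RefSeq gene table of GRCm38.p6. That gave 5 of 27962 gene names and 10 of 41174 gene probes on the array, and all 10 were bright enough to be tested.

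Endocannabinoids are lipid messengers that are made on demand in the postsynaptic neuron and travel backwards across the synapse. There they bind CB1, the product of Cnr1, on the presynaptic terminal and reduce transmitter release. The best known are anandamide, which Napepld can make and Faah breaks down, and 2-arachidonoylglycerol (2-AG), which Mgll breaks down in presynaptic terminals. In rodents, CB1 signalling is known to be needed for normal extinction of conditioned fear, and in the hippocampus CB1 is most abundant on the terminals of interneurons that contain cholecystokinin.

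Each of the 15 arrays held total RNA from the hippocampus, and the animals were males of the inbred strain C57BL/6J, with 5 biological replicates a group. ELF mice had been shocked in a context, then returned to it daily without shock at intervals of 24 h. Their RNA was taken 1 h after the trial on which freezing had fallen, which was trial 5. E1 mice had been shocked in the same way, and their RNA was taken 1 h after the first return to the context, when freezing was high. Control mice received no shock. The design text describes them as placed in the context, while the sample names call them naive, and the labels give no time between their last handling and RNA isolation. No genetic manipulation or drug is named for any group. The labels give no age.

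Levels are log2 of the background-corrected spot intensity minus the 75th percentile of the same array, so a value of 0 lies at that percentile and negative values lie below it. Between 83.5% and 97.2% of spots on an array were well above background. The arrays lay on 4 slides: slide 1 held 4 control arrays, slide 2 held 3 E1 arrays and 1 control array, slide 3 held 2 ELF and 2 E1 arrays, and slide 4 held 3 ELF arrays. No slide held both ELF and control arrays. In a fit with slide as a fixed block, that comparison adds ELF minus E1 on slide 3 to E1 minus control on slide 2. It then rests on 2 ELF arrays and 1 control array, joined through E1. Over all probes, the median of ELF minus E1 was -0.18 on slide 3. That of E1 minus control was -0.04 on slide 2. The ELF arrays were the most scattered: the median within-group SD over 38372 probes was 0.32 for ELF, 0.17 for E1 and 0.17 for control. ELF replicate 2 was the highest of the 15 arrays for 41.5% of probes, and ELF replicate 4 was the lowest for 31.1%. All 6 markers listed for hippocampal principal neurons were well above background on every array. So were all 6 listed for cholecystokinin interneurons, which were Cck, Gad1, Gad2, Slc17a8, Htr3a and Slc32a1. In whole tissue, fewer cells of a type and less RNA per cell cannot be told apart.

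The probes read different stretches of sequence, and results are given probe by probe for that reason. Mgll probe 3 carries the symbol Mgll on the array but was designed to another transcript record than Mgll probes 1 and 2, which the RefSeq table did not match to a gene. The sequence of 1 probe each of Cnr1, Faah, Mgll and Napepld is shown 5′ to 3′ in lower case, with no base singled out. For Mgll and Napepld the probe shown is not the brightest one. All sequences come from the deposited array files.
Cnr1: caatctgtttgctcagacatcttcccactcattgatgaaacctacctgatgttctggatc
Napepld probe 2: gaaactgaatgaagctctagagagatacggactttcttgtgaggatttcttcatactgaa
Faah probe 1: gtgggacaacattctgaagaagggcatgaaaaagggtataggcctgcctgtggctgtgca
Mgll probe 2: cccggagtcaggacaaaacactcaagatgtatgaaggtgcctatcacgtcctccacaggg

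On the mouse build mm7, the build of the file headers, the Cnr1 probe lies at chr4:34222802-34222861 on the plus strand. Napepld probe 2 lies at chr5:20703245-20703304 on the minus strand. Faah probe 1 lies on the minus strand at chr4:115375017-115375281, so its 60 bases are spread over 265 bases of the genome, as for a probe that joins exons. Mgll probe 2, at chr6:88898474-88900777 on the plus strand, is spread over 2304 bases in the same way. The other 6 probes each match 60 unbroken bases: Faah probe 2 at chr4:115373458-115373517, Cnr2 probe 1 at chr4:135298117-135298176, Cnr2 probe 2 at chr4:135297562-135297621, Mgll probe 1 at chr6:88903385-88903444, Mgll probe 3 at chr6:88841682-88841741 and Napepld probe 1 at chr5:20701477-20701536. Exon and UTR annotation of mm7 was not used here.

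No endocannabinoid probe passed the test in any of the 3 comparisons. Groups were compared with limma over all 38458 probes tested, with Benjamini-Hochberg adjustment, and the threshold was an adjusted p of 0.05. In E1 versus control 0 of 10 endocannabinoid probes were called, against 0.104% of all probes. In ELF versus control 0 of 10 were called, against 2.36% of all probes. In ELF versus E1 0 of 10 were called, against 0.0052% of all probes, which is 2 probes in all. At an unadjusted p under 0.05 the counts were 1 of 10 in E1 versus control, 3 of 10 in ELF versus control and 2 of 10 in ELF versus E1, where the shares over all probes were 13.1%, 23.4% and 9.98%. The median difference of the 10 probes was 0.06 in E1 versus control, where that of all probes was 0.04. It was 0.19 in ELF versus control, where that of all probes was 0.08, and 0.12 in ELF versus E1, where that of all probes was 0.03. The comparisons share arrays: the same 5 control arrays serve E1 and ELF, and the same 5 ELF arrays serve control and E1.

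**Figure D1:**
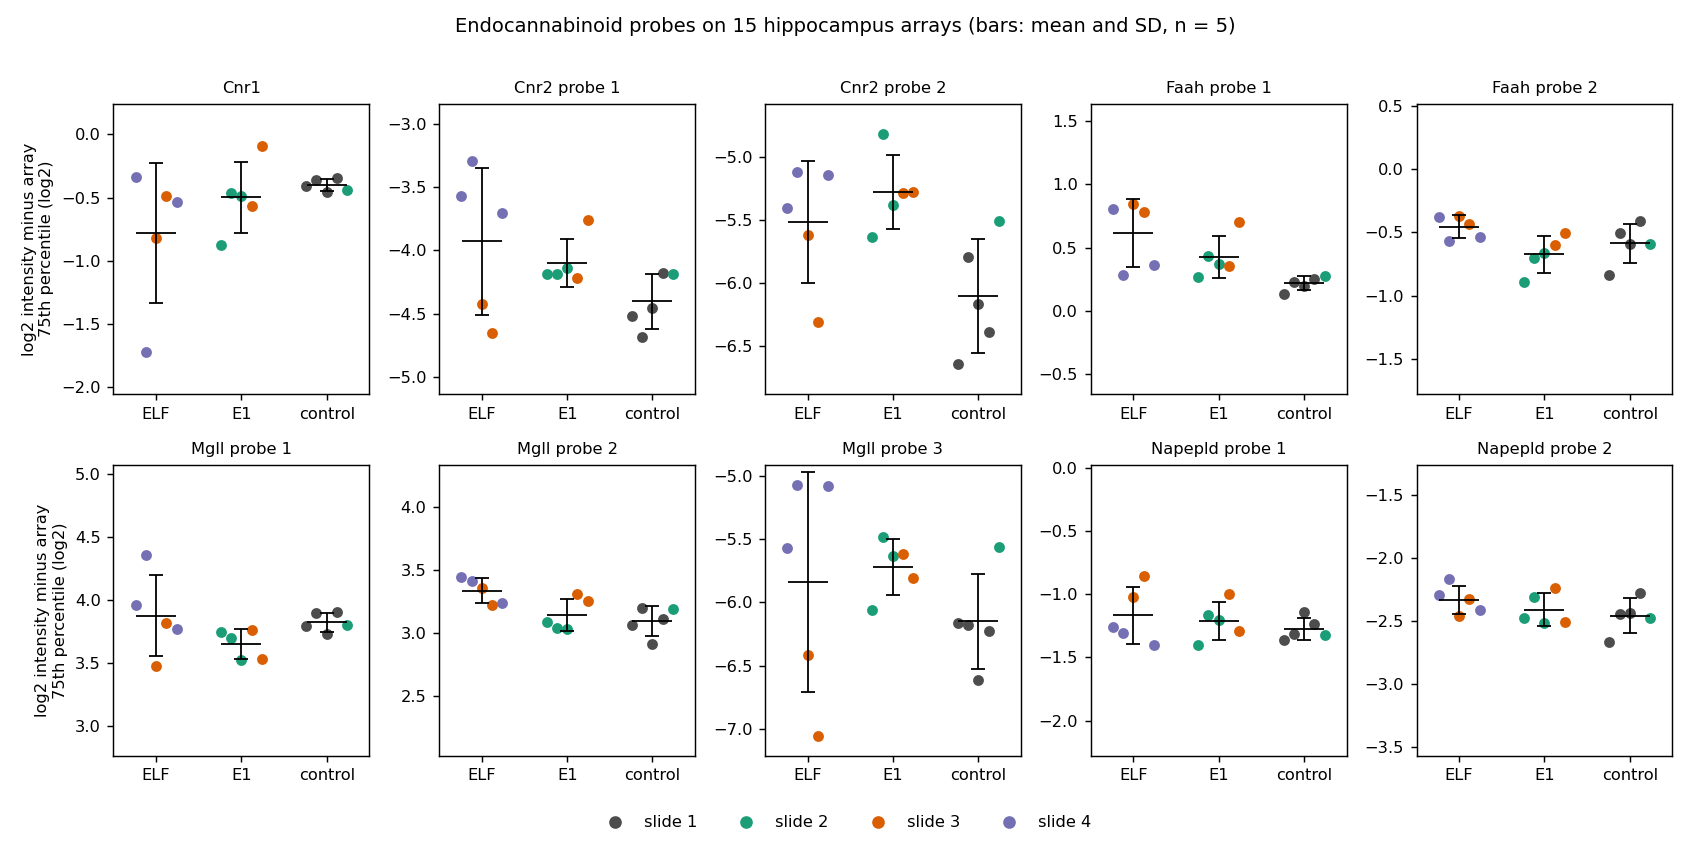
Level of each of the 10 endocannabinoid probes on every array, in log2 units relative to the array's 75th percentile, with ELF, E1 and control from left to right. Each point is 1 array, coloured by slide, and bars give the mean and SD of 5 arrays. Cnr1 is tight in controls and scattered in ELF, Faah probe 1 and Mgll probe 2 lie higher on every ELF array than on any control array, and the Cnr2 probes and Mgll probe 3 are low and scattered.

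Cnr1 encodes CB1, the receptor on which both messengers act in the brain. Its level was -0.33, -1.72, -0.82, -0.49 and -0.54 on the ELF arrays of replicates 1 to 5. On the E1 arrays it was -0.87, -0.46, -0.49, -0.57 and -0.09, and on the control arrays it was -0.41, -0.36, -0.46, -0.35 and -0.44. The control arrays lay within 0.11 of each other, the ELF and E1 arrays lay on both sides of them, and no pair of groups was apart. Cnr1 averaged -0.78 ± 0.56 in ELF, -0.50 ± 0.28 in E1 and -0.40 ± 0.05 in control (SD, n = 5 each).

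The difference of Cnr1 was -0.38 in ELF versus control (SE 0.22, 95% interval -0.84 to 0.09, limma adjusted p = 0.304). In E1 versus control it was -0.09 (interval -0.56 to 0.37, adjusted p = 0.898), and in ELF versus E1 it was -0.28 (interval -0.75 to 0.18, adjusted p = 0.700). On the linear scale the ELF mean was thus 0.77 times that of control, with an interval from 0.559 to 1.06. ELF replicate 2 stood lowest by a wide margin, and without it the difference was -0.14 in ELF versus control (adjusted p = 0.613) and -0.05 in ELF versus E1 (adjusted p = 0.979). On slide 3, the only one with both groups, ELF minus E1 was -0.32, with 2 arrays each, beside a median of -0.18 over all probes. On slide 2 E1 minus control was -0.17, with 3 E1 arrays and 1 control array, beside a median of -0.04.

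The spread of Cnr1 differed widely between groups, which is given as a description with no test. Its SD in ELF was 11.6 times that in control, a ratio larger than that of 99.6% of all probes, where the median ratio was 1.92. Its SD in E1 was 5.85 times that in control. The control SD of Cnr1 was itself low: only 2.16% of probes had a smaller one. ELF replicate 2, at -1.72, lay far below the other ELF arrays. In addition, 4 control arrays shared slide 1, while the ELF arrays lay on slides 3 and 4. The part of that array and of the slides in the ratio was not tested. Faah probe 1 had an ELF to control ratio of 4.90 and Mgll probe 1 one of 4.30, whereas Faah probe 2, Mgll probe 2 and Napepld probe 2 had smaller SDs in ELF than in control, with ratios of 0.582, 0.857 and 0.816.

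The genes listed as markers of cholecystokinin interneurons were read beside it, though they were not shown to mark these cells alone. The summed linear level of the 6 cholecystokinin interneuron markers ran from 55.6 to 72.5 in ELF, from 67.9 to 83.7 in E1 and from 65.6 to 80.7 in control. Of the 6, 0 rose and 0 fell in each comparison, and their median difference was -0.16 in ELF versus control. The part of these cells in the Cnr1 values was not tested.

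Cnr2 encodes CB2, which is best known from immune cells, where it is far more abundant than in neurons. Both of its probes were dim here. Cnr2 probe 1 had processed intensities between 107.1 and 212 on ELF arrays, between 102 and 135 on E1 arrays and between 76.5 and 116 on control arrays. It was well above background on all 15 arrays, and Cnr2 probe 2 on 14 of 15, the exception being ELF replicate 4.

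The level of Cnr2 probe 1 was -3.57, -3.29, -4.42, -4.65 and -3.71 on the ELF arrays of replicates 1 to 5. It was -4.19, -4.19, -4.14, -4.22 and -3.76 on the E1 arrays, and -4.52, -4.69, -4.46, -4.18 and -4.18 on the control arrays. The 3 ELF arrays of slide 4 were the highest, the 2 ELF arrays of slide 3 lay below every E1 array, and all groups overlapped. The difference was 0.48 in ELF versus control (SE 0.22, interval -0.01 to 0.96, adjusted p = 0.218), 0.30 in E1 versus control (interval -0.18 to 0.79, adjusted p = 0.604) and 0.17 in ELF versus E1 (interval -0.31 to 0.65, adjusted p = 0.848).

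Cnr2 probe 2 had the largest difference of the 10 probes. Its level was -5.41, -5.12, -5.61, -6.30 and -5.14 on the ELF arrays of replicates 1 to 5, -5.64, -4.82, -5.38, -5.28 and -5.27 on the E1 arrays, and -6.64, -5.79, -6.17, -6.38 and -5.51 on the control arrays. E1 arrays were high and control arrays low, with an overlap through E1 replicate 1 and control replicate 5, which share slide 2. E1 versus control gave 0.82 (SE 0.25, interval 0.29 to 1.35), a 1.76-fold higher mean, with an unadjusted p of 0.00522 and an adjusted p of 0.164 by limma. By unadjusted p it ranked 1222 of 38458 probes. E1 was higher than the control array of the same number in 5 of 5 pairs, as for 19.8% of all probes.

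The call on Cnr2 probe 2 in E1 versus control depended on the fit. With the replicate number as a block and only the 10 arrays of these groups, the same difference had a limma adjusted p of 0.0191, in a fit that called 4471 probes in all. The labels state no pairing by that number. With the block and all 15 arrays the adjusted p was 0.0803. Without control replicate 5, the control array of slide 2, the difference was 0.97 (adjusted p = 0.0435), in a fit that called 1633 probes in all. Within slide 2, E1 minus control was 0.23 for Cnr2 probe 2 and 0.01 for Cnr2 probe 1, with 3 E1 arrays and 1 control array. The other 4 control arrays lay on slide 1, which held no E1 array.

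ELF versus control gave 0.58 for Cnr2 probe 2 (interval 0.05 to 1.11, adjusted p = 0.181), and ELF versus E1 gave -0.24 (interval -0.77 to 0.29, adjusted p = 0.798). Without ELF replicate 4, the array that was lowest for the most probes, both Cnr2 probes passed the threshold in ELF versus control, by 0.66 for probe 1 and 0.78 for probe 2 (limma adjusted p = 0.0358 and 0.0305), in a fit that called 7191 probes. Without ELF replicate 2 the value of probe 1 was 0.32 in ELF versus control (adjusted p = 0.435) and 0.01 in ELF versus E1 (adjusted p = 0.997). On slide 3, ELF minus E1 was -0.55 for Cnr2 probe 1 and -0.68 for Cnr2 probe 2, with 2 arrays each, beside a median of -0.18 over all probes on that slide. With slide as a fixed block, ELF versus control turned to -0.53 for probe 1 (adjusted p = 0.294) and -0.45 for probe 2 (adjusted p = 0.593). These values add the differences on slides 3 and 2, with 1 control array, and are no separate check.

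Dim probes as a class were shifted upwards in ELF versus control, and less so in E1 versus control. Cnr2 probe 1 lay in the third of 10 equal bins of probes by mean level, counted from the dimmest, where the median difference was 0.19 in ELF versus control and 0.10 in E1 versus control. Cnr2 probe 2 lay in the dimmest bin, where the medians were 0.18 and 0.05. In E1 versus control its 0.82 was above the upper quartile of that bin, 0.46, and in ELF versus control its 0.58 was just above the upper quartile, 0.55. Over all probes the median was 0.08 in ELF versus control and 0.04 in E1 versus control, the latter near that of the dimmest bin. In ELF versus E1 the medians of the third and the dimmest bin were 0.07 and 0.10. There Cnr2 probe 1 gave 0.17 and Cnr2 probe 2 gave -0.24, the opposite direction to its bin. The part of dimness in the Cnr2 values was not tested.

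**Figure D2:**
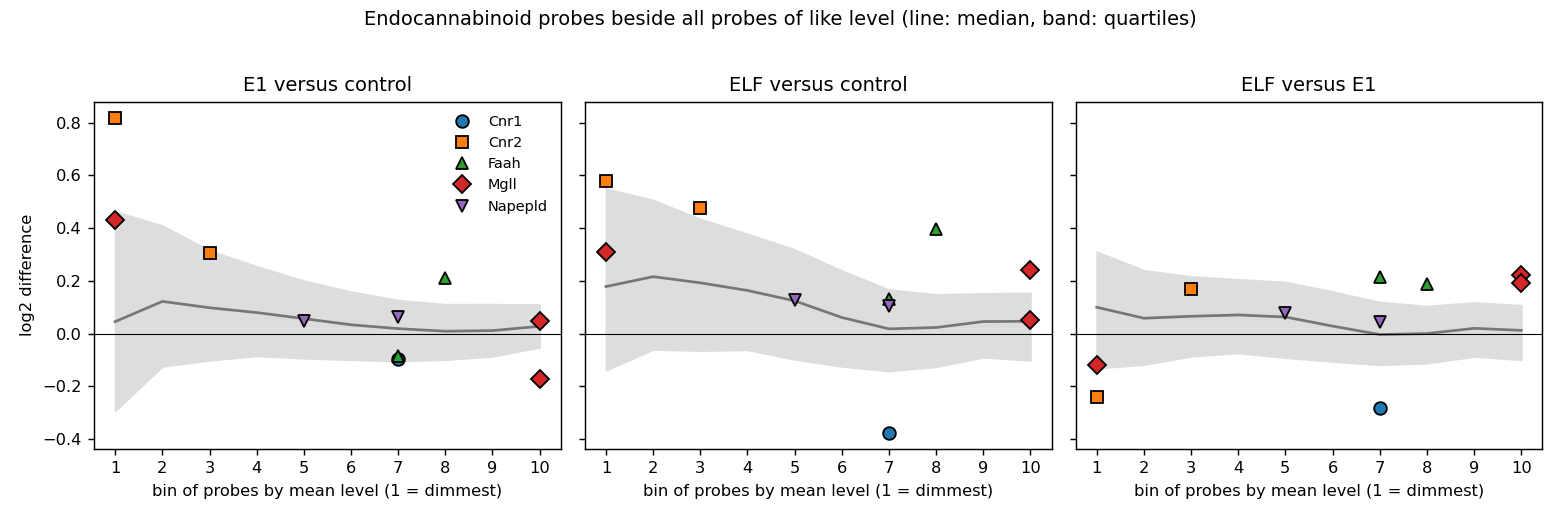
Log2 difference of each endocannabinoid probe in the 3 comparisons, plotted against its bin of mean level, from 1 (dimmest) to 10 (brightest) with equal shares of 38458 probes. The line is the median and the band the quartiles of all probes of that bin. Dim probes are shifted upwards in ELF versus control, and the points farthest outside the band are Cnr2 probe 2 in E1 versus control (0.82) and Faah probe 1 (0.40) and Cnr1 (-0.38) in ELF versus control.

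Markers of cells that carry CB2 were read beside Cnr2. All 6 microglia markers were well above background on every array, and their summed linear level ran from 7.21 to 8.26 in ELF, from 6.74 to 8.11 in E1 and from 6.40 to 7.72 in control. All 6 markers of B cells and blood leukocytes were also well above background on every array, with sums from 0.699 to 1.67 in ELF, from 0.821 to 1.18 in E1 and from 0.629 to 1.13 in control. Of both lists 0 markers rose and 0 fell in E1 versus control, where the median difference was 0.00 for microglia and 0.19 for B cells and leukocytes. In ELF versus control 0 rose and 0 fell, with medians of 0.15 and 0.33. Several leukocyte markers were as dim as Cnr2 probe 1: the lowest levels of Cd79a, Cd79b and Ms4a1 were -4.69, -4.49 and -4.89. Being well above background does not show that these cells were present. The part of dimness in the leukocyte medians was not tested. The part of these cells in the Cnr2 values was not tested.

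Napepld encodes the phospholipase D that releases anandamide from its membrane precursor. In the fit with no slide term it had the smallest differences between groups of the 5 genes, none beyond 0.13 on either probe. Napepld probe 1 averaged -1.17 ± 0.22 in ELF, -1.21 ± 0.15 in E1 and -1.27 ± 0.09 in control, and Napepld probe 2 averaged -2.33 ± 0.11 in ELF, -2.41 ± 0.13 in E1 and -2.46 ± 0.14 in control (SD, n = 5 each). The arrays of probe 1 ran from -1.40 to -0.86 in ELF, from -1.40 to -0.998 in E1 and from -1.36 to -1.14 in control. Those of probe 2 ran from -2.46 to -2.17 in ELF, from -2.51 to -2.24 in E1 and from -2.66 to -2.28 in control. All groups overlapped on both probes.

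The Napepld differences were small in the fit with no slide term. ELF versus control gave 0.11 for probe 1 (interval -0.13 to 0.34, adjusted p = 0.576) and 0.13 for probe 2 (interval -0.07 to 0.32, adjusted p = 0.418). E1 versus control gave 0.06 (interval -0.17 to 0.30, adjusted p = 0.858) and 0.05 (interval -0.15 to 0.25, adjusted p = 0.871). ELF versus E1 gave 0.04 (interval -0.19 to 0.28, adjusted p = 0.928) and 0.08 (interval -0.12 to 0.27, adjusted p = 0.830). The highest upper bound among these intervals was a 1.27-fold higher mean, in ELF versus control on probe 1, and the lowest lower bound was 0.875-fold, in ELF versus E1 on the same probe. These intervals take the arrays as independent, while limma's estimate of the correlation between arrays of 1 slide was 0.45. They do not show that the groups are alike. With slide as a fixed block, ELF versus control was 0.27 for probe 1 and 0.02 for probe 2, with 1 control array. On slide 3 ELF minus E1 was 0.21 for probe 1 and -0.02 for probe 2, and on slide 2 E1 minus control was 0.07 and 0.04. The medians over all probes were -0.18 on slide 3 and -0.04 on slide 2.

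Faah encodes fatty acid amide hydrolase, the enzyme that ends anandamide signalling. Faah probe 1 had the smallest adjusted p of the 10 probes in ELF versus control. Its level was 0.80, 0.28, 0.85, 0.78 and 0.36 on the ELF arrays of replicates 1 to 5, 0.27, 0.43, 0.37, 0.35 and 0.70 on the E1 arrays, and 0.13, 0.23, 0.20, 0.25 and 0.27 on the control arrays. Every ELF array was above every control array, though ELF replicates 2 and 5 only just, and the E1 arrays overlapped both groups.

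Faah probe 1 averaged 0.61 ± 0.27 in ELF, 0.43 ± 0.17 in E1 and 0.22 ± 0.06 in control (SD, n = 5 each). ELF versus control gave 0.40 (SE 0.12, interval 0.14 to 0.66), a 1.32-fold higher mean, with an unadjusted p of 0.00521 and an adjusted p of 0.0819 by limma. It did not pass the threshold under any alternative tried that scaled the arrays, or without any 1 array. With no scaling between arrays it was 0.65 (adjusted p = 0.0351), in a fit that called 5003 probes in all. E1 versus control gave 0.21 (interval -0.05 to 0.47, adjusted p = 0.496), with E1 higher than the control array of the same number in 5 of 5 pairs, as for 19.8% of all probes. With the replicate block its adjusted p was 0.577 over all arrays and 0.104 with only these groups. The difference was 0.14 without E1 replicate 5. ELF versus E1 gave 0.19 (interval -0.07 to 0.45, adjusted p = 0.626). With slide as a fixed block the ELF versus control difference was 0.37 (adjusted p = 0.405), with 1 control array. That value includes ELF minus E1 on slide 3, which was 0.28, with 2 arrays each, beside a median of -0.18 over all probes.

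The second Faah probe did not show a separation of ELF from control. Its level was -0.37, -0.57, -0.37, -0.44 and -0.53 on the ELF arrays, -0.90, -0.70, -0.66, -0.60 and -0.50 on the E1 arrays, and -0.83, -0.51, -0.59, -0.41 and -0.59 on the control arrays. ELF arrays were among the higher ones but overlapped both other groups. The difference was 0.13 in ELF versus control (interval -0.07 to 0.34, adjusted p = 0.417), -0.09 in E1 versus control (interval -0.29 to 0.12, adjusted p = 0.762) and 0.22 in ELF versus E1 (interval 0.01 to 0.42, unadjusted p = 0.0391, limma adjusted p = 0.487). On slide 3 ELF minus E1 was 0.15 for Faah probe 2, beside a median of -0.18 over all probes. On slide 2 E1 minus control was 0.08 for Faah probe 1 and -0.16 for Faah probe 2, beside a median of -0.04.

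Mgll encodes monoacylglycerol lipase, which hydrolyses 2-AG. Mgll probes 1 and 2 were bright, with processed intensities of at least 13791 on every array, and Mgll probe 3 was dim, with at most 80.9. Mgll probe 2 was 3.45, 3.42, 3.36, 3.22 and 3.24 on the ELF arrays of replicates 1 to 5, 3.09, 3.04, 3.03, 3.31 and 3.26 on the E1 arrays, and 3.07, 3.20, 2.91, 3.11 and 3.19 on the control arrays. Every ELF array was above every control array, with ELF replicate 4 and control replicate 2 closest to each other, and the E1 arrays of slide 3 lay among the ELF arrays.

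Mgll probe 2 averaged 3.34 ± 0.10 in ELF, 3.15 ± 0.13 in E1 and 3.10 ± 0.12 in control (SD, n = 5 each). ELF versus control gave 0.24 (SE 0.09, interval 0.06 to 0.43), a 1.18-fold higher mean, with an adjusted p of 0.124. E1 versus control gave 0.05 (interval -0.14 to 0.23, adjusted p = 0.865) and ELF versus E1 0.19 (interval 0.01 to 0.38, unadjusted p = 0.0424, limma adjusted p = 0.491). E1 was higher than the control array of the same number in 4 of 5 pairs. On slide 3 ELF minus E1 was 0.01, beside a median of -0.18 over all probes. On slide 2 E1 minus control was -0.14, beside -0.04. With slide as a fixed block, which adds these differences, ELF versus control turned to -0.13 (adjusted p = 0.706).

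Across ELF versus control, 2 of the 10 endocannabinoid probes lay wholly above the control arrays, Faah probe 1 and Mgll probe 2, against 2.32% of all probes, and 0 of 10 lay wholly below, against 2.69%. In E1 versus control 0 of 10 lay wholly above, against 2% of all probes, and 0 of 10 wholly below, against 1.64%. In ELF versus E1 0 of 10 lay wholly above, against 0.972%, and 0 of 10 wholly below, against 1.17%.

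On the other Mgll probes all groups overlapped. Mgll probe 1 was 3.96, 4.36, 3.48, 3.82 and 3.77 on the ELF arrays, 3.75, 3.70, 3.52, 3.76 and 3.53 on the E1 arrays, and 3.79, 3.90, 3.73, 3.91 and 3.80 on the control arrays, and the ELF arrays spanned the range of both other groups. Its difference was 0.05 in ELF versus control (interval -0.23 to 0.33, adjusted p = 0.835), -0.17 in E1 versus control (interval -0.45 to 0.11, adjusted p = 0.616) and 0.22 in ELF versus E1 (interval -0.05 to 0.50, adjusted p = 0.587). E1 was lower than the control array of the same number in 5 of 5 pairs, by 0.04 to 0.27, as for 9.40% of all probes, and with the replicate block the adjusted p was 0.575 over all arrays and 0.120 with only these groups. The value in ELF versus control rested on ELF replicate 2 for its sign. Without that array it was -0.07, and ELF versus E1 was 0.10 (adjusted p = 0.863). On slide 3 ELF minus E1 was 0.00, beside a median of -0.18 over all probes. On slide 2 E1 minus control was -0.14, beside a median of -0.04.

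Mgll probe 3, which lies upstream of the other Mgll probes on the genome, was well above background on 3 of 5 ELF arrays, 3 of 5 E1 arrays and 5 of 5 control arrays. Its level was -5.57, -5.07, -6.41, -7.06 and -5.08 on the ELF arrays, -6.06, -5.48, -5.63, -5.61 and -5.81 on the E1 arrays, and -6.17, -6.18, -6.61, -6.23 and -5.56 on the control arrays. ELF replicates 2 and 5, on slide 4, were the highest of the 15 arrays, and ELF replicate 4, on slide 3, was the lowest. Its difference was 0.31 in ELF versus control (interval -0.40 to 1.02, adjusted p = 0.589), 0.43 in E1 versus control (interval -0.28 to 1.14, adjusted p = 0.624) and -0.12 in ELF versus E1 (interval -0.83 to 0.59, adjusted p = 0.934). With slide as a fixed block, ELF versus E1 was -1.02 (adjusted p = 0.0235). That is the difference within slide 3, where both ELF arrays and 1 of 2 E1 arrays were not well above background, so its size and call rest on values without a measured level. That fit called 6919 probes in all. The difference in ELF versus control was 0.12 without ELF replicate 2, 0.12 without ELF replicate 5, 0.61 without ELF replicate 4 and 0.19 without control replicate 3. On slide 2 E1 minus control was -0.16.

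**Figure D3:**
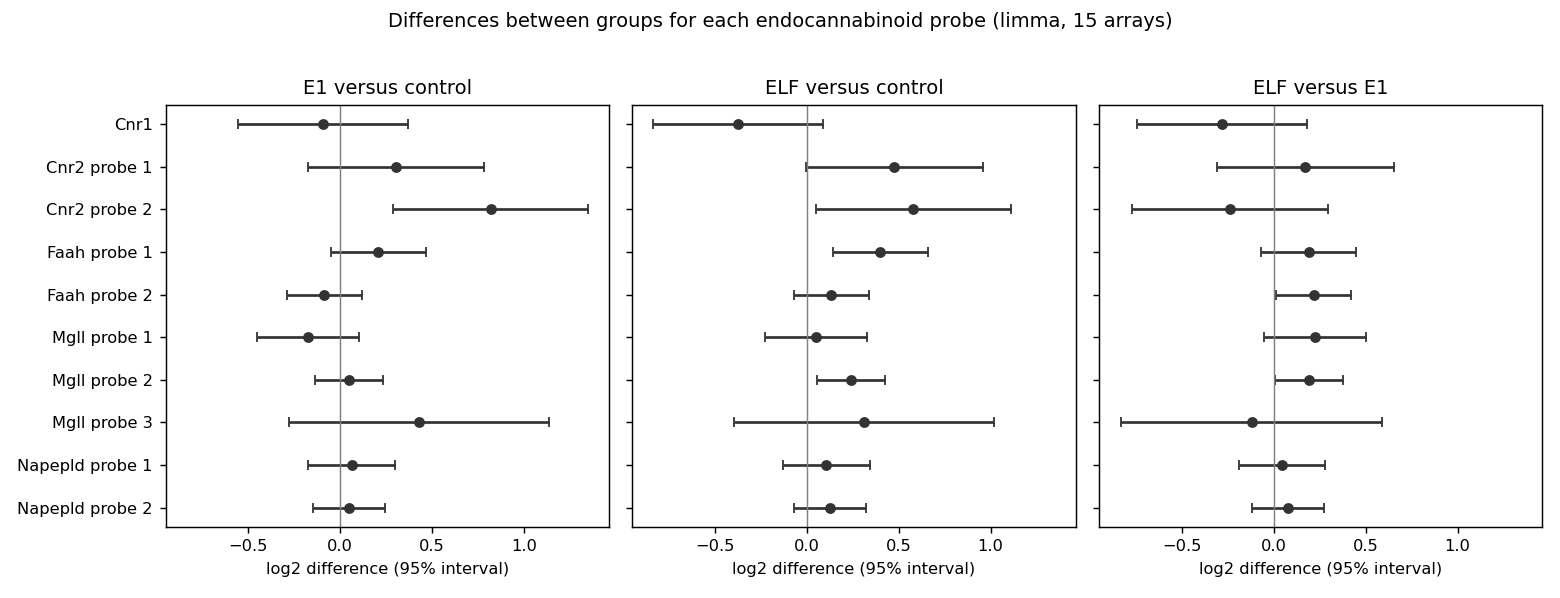
Log2 difference and 95% interval of each of the 10 endocannabinoid probes in E1 versus control, ELF versus control and ELF versus E1, from the limma fit of 15 arrays, with the first-named group on the positive side. The intervals of Cnr2 probe 2 (E1 versus control and ELF versus control), Faah probe 1 and Mgll probe 2 (ELF versus control), and Faah probe 2 and Mgll probe 2 (ELF versus E1) leave out 0 before adjustment, and no probe passed the threshold after it.

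Probes of the same gene were compared over the 15 arrays in 6 pairs, each with a permutation test and adjustment over the 6. The Cnr2 probes had a Pearson's r of 0.62 (permutation adjusted p = 0.0277) and a Spearman's rho of 0.63 (adjusted p = 0.0893), and r was 0.62 without ELF replicates 1 and 2, the arrays farthest from the median. The Faah probes had an r of 0.63 (permutation adjusted p = 0.0277) and a rho of 0.51 (adjusted p = 0.167), and r was 0.43 without ELF replicates 1 and 3, so that the relation rested in part on those arrays. The Mgll pairs had r of 0.37, 0.30 and 0.33 (permutation adjusted p = 0.274, 0.282 and 0.274) and rho of 0.36, 0.17 and 0.28 (adjusted p = 0.29, 0.552 and 0.384), for probes 1 and 2, 1 and 3, and 2 and 3. The Napepld pair had an r of 0.34 (permutation adjusted p = 0.274) and a rho of 0.36 (adjusted p = 0.29). After the mean of each of the 4 slides was subtracted, with permutation within slides, r was 0.61 for the Faah pair (permutation adjusted p = 0.0142), 0.35 for the Cnr2 pair (adjusted p = 0.552) and 0.57 for the Napepld pair (adjusted p = 0.131). For the Mgll pairs, in the same order, it was 0.42, -0.03 and 0.17 (permutation adjusted p = 0.386, 0.927 and 0.600). The relation of the Cnr2 probes thus did not pass within slides.

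The genes whose pattern over the 15 arrays was most like that of each member were sought among the brightest probe of 26537 gene names, as a description with no test. They are given by current symbol where one was found. For Cnr1 they were Prrc2a (r = 0.96), Camk1d (r = 0.95) and Zfp664 (r = 0.95), with rho of 0.72, 0.75 and 0.69, and r of 0.80, 0.73 and 0.66 without ELF replicate 2 and E1 replicate 1. For Cnr2, by probe 1, they were Plekhg6 (r = 0.99), Ptafr (r = 0.99) and the unnamed transcript TC1437743 (r = 0.98), with r of 0.98, 0.98 and 0.98 without ELF replicates 1 and 2. The pattern of Cnr2 was widely shared, since 1800 of the 26537 gene names had an r over 0.9 with it. That number was 70 for Cnr1, 4 for Faah, 0 for Mgll and 0 for Napepld.

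For Faah, by probe 1, the most alike were Ctxn1 (r = 0.93), Apbb1 (r = 0.92) and Twnk (r = 0.91), with r of 0.92, 0.88 and 0.89 without ELF replicates 1 and 3. For Mgll, by probe 1, they were Mrpl32 (r = 0.89), 2310039H08Rik (r = 0.88) and Kat8 (r = 0.88), with r of 0.75, 0.76 and 0.59 without ELF replicates 2 and 3. For Napepld, by probe 1, they were Anxa11 (r = 0.88), Wrnip1 (r = 0.86) and the unnamed probe NAP102462-1 (r = 0.84), with r of 0.69, 0.76 and 0.78 without ELF replicate 4 and E1 replicate 4. Among the members, the dim probes ran together whichever gene they belong to: Mgll probe 3 had an r of 0.79 with Cnr2 probe 1 and of 0.78 with Cnr2 probe 2. These correlations share the arrays, their slides and their scaling.

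Around the 5 genes, 28 others of the pathway were listed in 7 groups by role, and 27 were measured. By the brightest probe of each, 0 of 27 rose and 0 of 27 fell in each of the 3 comparisons. Their median difference was 0.06 in E1 versus control, 0.08 in ELF versus control and 0.02 in ELF versus E1, where that of all probes was 0.04, 0.08 and 0.03. Without 1 array the list medians ran from 0.04 to 0.08, from 0.03 to 0.11 and from -0.04 to 0.06.

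For 2-AG synthesis, the diacylglycerol lipases Dagla and Daglb, which make 2-AG, and the phospholipases Plcb1 and Plcb4, which supply their substrate, had a median of -0.06 in E1 versus control, -0.47 in ELF versus control and -0.40 in ELF versus E1, with 2 of 4 above 0 each time. Each time the 2 above 0 were Dagla and Daglb, and the 2 below were Plcb1 and Plcb4. In ELF versus control Dagla was at 0.08 and Daglb at 0.17, so the median lies between the 2 pairs. The only probe taken as Dagla is labelled Nt5dc3 on the array, so its identity is uncertain. Without ELF replicate 2 the median of the group was -0.21 in ELF versus control, with 2 of 4 above 0, and -0.16 in ELF versus E1, with 0 of 4 above 0. The gene of this group with the largest difference was Plcb4 in both comparisons with control, at -0.26 in E1 (adjusted p = 0.743) and -1.09 in ELF (adjusted p = 0.0509). In ELF versus control it crossed the threshold under several alternatives, such as quantile normalization (adjusted p = 0.0492), a shift to the array median (0.0465), normexp (0.0325) and the deposited log2 table (0.0254), and without ELF replicate 2 (0.0464), ELF replicate 4 (0.0170) or control replicate 5 (0.0265). It did not with slide as a fixed block (-0.29, adjusted p = 0.815) or a random block (-0.83, adjusted p = 0.964), nor with only the 2 groups compared (adjusted p = 0.170). The other Plcb4 probe, A_52_P497164, gave -0.09 (adjusted p = 0.938). It was dim, at -6.92 to -5.98 in ELF and -7.01 to -5.87 in control, and so a weak check on the first. In ELF versus E1 the largest was that of Plcb1, at -0.86 (adjusted p = 0.555), and without ELF replicate 2 it was -0.26 (adjusted p = 0.656).

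Among the other enzymes that break down 2-AG, the largest difference belonged to Ptgs2, which oxidises it, in E1 versus control (0.18, adjusted p = 0.602) and ELF versus E1 (-0.18, adjusted p = 0.692), and to the lipase Abhd6 in ELF versus control (-0.12, adjusted p = 0.701). Among the other enzymes of anandamide synthesis it was Gde1 in E1 versus control (0.18, adjusted p = 0.437), and Abhd4 in ELF versus control (0.20, adjusted p = 0.169) and ELF versus E1 (0.19, adjusted p = 0.489). Naaa, an acid amidase listed alone as a further enzyme of acylethanolamide breakdown, gave -0.09 in E1 versus control (adjusted p = 0.618), 0.13 in ELF versus control (adjusted p = 0.238) and 0.22 in ELF versus E1 (adjusted p = 0.363).

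Among the other receptors, of which 5 of 6 were measured, the largest difference was that of Gpr18 in E1 versus control (0.39, adjusted p = 0.686), Gpr55 in ELF versus control (0.55, adjusted p = 0.377) and the nuclear receptor Ppara in ELF versus E1 (-0.23, adjusted p = 0.556). Gpr55 was 0.34 without ELF replicate 2, 0.32 without ELF replicate 5 and 0.87 without ELF replicate 4, and Ppara was -0.10 without ELF replicate 2. The probes of Gpr18 and Gpr55 were dim, with control means of -5.09 and -5.97. Among the carriers of fatty acids it was Fabp3 in E1 versus control (0.15, adjusted p = 0.607), and Fabp5 in ELF versus control (0.28, adjusted p = 0.174) and ELF versus E1 (0.25, adjusted p = 0.503). An outlier spot of Fabp5 was left out on an ELF array. Among the partners of CB1 it was Gprasp1, a sorting protein of G protein coupled receptors, in E1 versus control (-0.24, adjusted p = 0.743). In ELF versus control and ELF versus E1 it was Gnai1, whose probes are given next.

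When all 45 probes of these genes were read, 1 rose and 1 fell in ELF versus control, against 2.36% of all probes called in either direction, and 0 in the other comparisons. Both belong to G protein subunits, and nothing is read from a count of this size. A probe of Gnao1 (A_52_P205037) was -4.15, -3.72, -4.03, -3.89 and -4.01 on the ELF arrays, against -4.64, -4.92, -4.76, -5.00 and -4.75 on the control arrays. All ELF arrays were higher, and the difference was 0.85 (SE 0.10, limma adjusted p = 0.0169). That probe was dim, with a control mean of -4.81, and dim probes as a class were shifted upwards in ELF versus control. The brightest Gnao1 probe had a control mean of 2.65. A probe of Gnai1 (A_52_P653585) was 1.79, 0.51, 1.30, 1.41 and 1.79 on the ELF arrays, against 2.09, 2.29, 2.20, 2.20 and 2.04 on the control arrays. All ELF arrays were lower, and the difference was -0.80 (SE 0.19, limma adjusted p = 0.0445).

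Other probes of the same G protein genes did not pass the threshold and some pointed the other way. The brightest probe of Gnao1, A_51_P129065, gave -0.03 in ELF versus control (adjusted p = 0.902), and A_52_P205031 gave 0.44 (adjusted p = 0.191). The brightest probe of Gnai1, A_51_P367837, gave -0.40 (adjusted p = 0.151), and -0.33 in ELF versus E1 (adjusted p = 0.509), and without ELF replicate 2 these were -0.23 and -0.15. In ELF versus control A_52_P920129 gave -0.27 (adjusted p = 0.342), and A_51_P367834 gave 0.48 (adjusted p = 0.0584). Neither called probe passed with slide as a random block (adjusted p = 0.964 for both), with differences of 0.78 for Gnao1 and -0.77 for Gnai1, and in that fit 0 of all probes were called in any comparison. The differences were 0.65 for the Gnao1 probe (adjusted p = 0.143) and -0.71 for the Gnai1 probe (adjusted p = 0.403) with slide as a fixed block. With only the 2 groups compared the adjusted p was 0.111 for Gnao1 and 0.157 for Gnai1, in a fit that called 0 probes. With no scaling the Gnai1 probe did not pass (adjusted p = 0.151), nor did the Gnao1 probe with quantile normalization (adjusted p = 0.0530). Leaving out 1 array also ended calls: the adjusted p of the Gnao1 probe was 0.0618 without control replicate 2 and 0.0761 without control replicate 3, and that of the Gnai1 probe was 0.0603 without ELF replicate 3 and 0.111, 0.112, 0.130 and 0.0822 without control replicates 1, 2, 3 and 4.

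**Figure D4:**
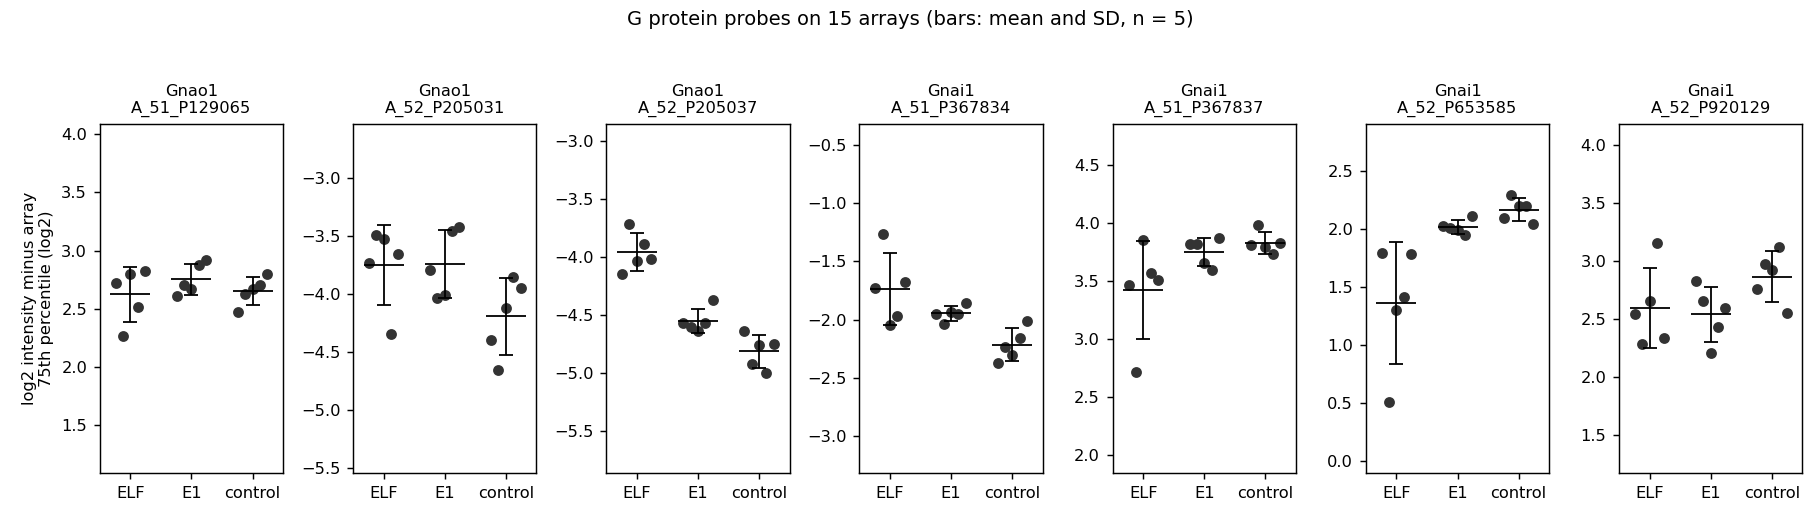
Level of 3 Gnao1 and 4 Gnai1 probes on each array, in log2 units relative to the array's 75th percentile, with ELF, E1 and control from left to right. Points are arrays, and bars give the mean and SD of 5. Probe A_52_P205037 of Gnao1 is higher and probe A_52_P653585 of Gnai1 lower on all ELF arrays than on all control arrays, and the other probes of these genes overlap or lie the other way.

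Genes of other lists were called on the same arrays. Of 6 listed genes that neuronal activity induces, 4 rose and 0 fell in E1 versus control, with a median difference of 0.99, and 1 rose and 0 fell in ELF versus control, with a median of 0.42. Of 6 endothelial markers, 0 rose and 4 fell in ELF versus control, with a median of -0.75, and 0 rose and 1 fell in E1 versus control, with a median of -0.64. Over all probes, 0.104% were called in either direction in E1 versus control and 2.36% in ELF versus control. The summed linear level of the 5 measured choroid plexus markers, of tissue that borders the hippocampus, ran from 1.41 to 22.2 in ELF, from 18.5 to 33.5 in E1 and from 24.9 to 38.6 in control. With slide as a random block 0 of all probes were called in any comparison, these genes included. For the 10 endocannabinoid probes the counts were 0 in each direction, and the part of the endothelial and choroid plexus markers in their values was not tested.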

How the data were processed

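RNA of 15 mice was measured on 15 single-colour Agilent arrays, 5 a group. Per the file headers, Agilent Feature Extraction 9.5.3.1 gave each of 45018 spots a processed intensity, background-subtracted within the array, and flags for spots well above background, saturated or outlying. The table of log2 values deposited by the authors covers these spots too. Its normalization between arrays was not given in the sources used here. Per the submitters' processing notes, limma was among the tools. The 1639 control spots and outlier spots were left out. The 75th percentile of each array was subtracted from its log2 processed intensities, and spots of a probe were averaged. Of 41174 probes, 38458 were kept, well above background on at least 5 of 15 arrays. The number of arrays limits the precision.

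The fit was made by limma's lmFit and eBayes (version 3.58.1, R 4.3.3, two-sided tests) on all 15 arrays with no covariate and Benjamini-Hochberg adjustment over all probes. The method was tested on simulated independent normal values, with the same SD in all groups and no slide effect. That test does not cover the slides or the wider scatter of the ELF arrays. Groups and replicate numbers come from the sample titles. The labels state no pairing by these numbers, and the main fit used none. Arrays of the same number in E1 and control had correlated deviations, from 0.15 to 0.29 in all 5 pairs. The array of the same number was the best match in only 3 of them. The pair counts and the replicate block for E1 and control thus rest on these data alone. Same-number correlations ran from -0.43 to 0.30 for ELF and control and from -0.39 to 0.17 for ELF and E1. No pair counts were made for those.

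Every probe of the 5 genes is named. Of the other pathway genes, those with a probe past the threshold are named, and in each list the gene whose brightest probe differed most in each comparison. The genes, lists and tests were chosen with earlier results of these data known. Some pathway genes carry other names on this design (Daglb as E330036I19Rik, Gde1 as Mir16, Naaa as Asahl) and were matched by transcript to the RefSeq table of GRCm38.p6. The only probe taken as Dagla was matched in the same way. The design labels it Nt5dc3, so label and match differ and its identity is uncertain. A probe for Trpv1 was not found by these matches. The alternatives tried were other scalings, background correction, filters, the deposited log2 table, slide or replicate number in the model, fewer groups, and leaving out each array in turn. No scaling at all, the replicate block with only the groups compared, list medians without 1 array, and correlations within slides were chosen after seeing the data.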

Additional observations from a re-analysis of the deposited data

Results flagged for a closer look

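Of 30 sets of 5 arrays, made by 10 endocannabinoid probes in 3 groups, 1 held an array far from the others by Dixon's test, which chance alone flags in about 1 set in 20. Cnr2 probe 1 was -3.76 on E1 replicate 5, where the next highest E1 array was at -4.14, a gap of 0.831 of the range of the group.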

How the results depend on the processing

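Dim signal limits the Cnr2 probes and Mgll probe 3, and slide is entangled with group. Of 369 differences of the endocannabinoid probes under alternatives other than leaving out an array, 335 kept their direction and side of the threshold, 4 passed it and 30 changed sign. Of 300 without 1 array these numbers were 291, 3 and 6. The cause was not tested. The count of called endocannabinoid probes, 0 in each comparison, became 1 in ELF versus E1 with slide as a fixed block (Mgll probe 3), 1 in E1 versus control with the replicate block and only the groups compared (Cnr2 probe 2), and 2 in ELF versus control with no scaling (Cnr2 probe 1 and Faah probe 1). Without 1 array it ran from 0 to 1 in E1 versus control, from 0 to 2 in ELF versus control and stayed at 0 in ELF versus E1. The replicate block over all 15 arrays left it at 0 in each. With that block, in ELF versus control, the adjusted p was 0.0740 for the called Gnai1 probe, 0.0306 for the called Gnao1 probe and 0.0899 for Plcb4, where arrays share only a number.

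In E1 versus control the sign changed for Napepld probe 1 with normexp (-0.029) and no scaling (-0.0065), Napepld probe 2 with no scaling (-0.021), Mgll probe 2 with normexp (-0.063), slide as a fixed block (-0.14), slide as a random block (-0.0059) and no scaling (-0.022), and Mgll probe 3 (-0.16) and Plcb4 (0.13) with slide as a fixed block. In ELF versus control it changed for Mgll probe 1 with quantile normalization (-0.014), a shift to the median (-0.051), normexp (-0.0016), the deposited table (-0.041), slide as a fixed block (-0.14) and as a random block (-0.0062). With slide as a fixed block it changed for Cnr2 probe 1 (-0.53), Cnr2 probe 2 (-0.45), Faah probe 2 (-0.013), Mgll probe 2 (-0.13), Mgll probe 3 (-1.18), Gpr55 (-1.03) and Abhd6 (0.23), with slide as a random block for Mgll probe 3 (-0.16), and with no scaling for Abhd6 (0.13). In ELF versus E1 it changed for Napepld probe 1 with quantile normalization (-0.014), a shift to the median (-0.015) and the deposited table (-0.012), Napepld probe 2 with quantile normalization (-0.0029) and slide as a fixed block (-0.023), and Cnr2 probe 1 with slide as a fixed block (-0.55) and as a random block (-0.14). With no scaling, which moves all probes of an array together, it changed for Cnr1 (0.034), Cnr2 probe 2 (0.077), Mgll probe 3 (0.20), Ppara (0.088) and Ptgs2 (0.14).

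Without 1 array, differences that could change sign ran from -0.0020 to 0.095 for Napepld probe 2 and from -0.35 to 0.055 for Gprasp1 in E1 versus control, from -0.070 to 0.15 for Mgll probe 1 and from -0.19 to 0.091 for Abhd6 in ELF versus control, and from -0.036 to 0.10 for Napepld probe 1 and from -0.31 to 0.18 for Mgll probe 3 in ELF versus E1.

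Over all probes, the number called in E1 versus control, ELF versus control and ELF versus E1, 40, 907 and 2 as reported, was 535, 2530 and 1 with quantile normalization, 360, 1857 and 0 with a shift to the median, 268, 2549 and 0 with the deposited table, 4, 190 and 6919 with slide as a fixed block, 0, 0 and 0 with slide as a random block, 2, 287 and 0 with the replicate block, 4471, 0 and 0 with that block and only the groups compared, and 5, 5003 and 89 with no scaling. With normexp it was 0 in ELF versus E1, with no filter 1 in ELF versus E1, with 1 probe a gene 581 in ELF versus control, and with only the groups compared 0 in ELF versus control and 0 in ELF versus E1. Without 1 array it ran from 5 to 1633, from 0 to 7191 and from 0 to 15.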
